A study of Mus musculus with 12 samples.

Results

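The genes described here encode proteins that bone cells lay down in mineralizing matrix, namely the osteocalcins *Bglap*, *Bglap2* and *Bglap3*, bone sialoprotein (*Ibsp*), osteopontin (*Spp1*), matrix Gla protein (*Mgp*) and osteonectin (*Sparc*). They were taken by gene name from a table of 32288 genes and transgenes, so that 7 of 32288 genes are described. Because *Bglap*, *Bglap2* and *Bglap3* share sequence, their counts were also summed (the osteocalcin sum). RNA was sequenced from 12 libraries of mGFP+ cells sorted from the metaphysis, the part of long bones next to the growth plate.

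All mice carried *Osx-CreERT2*, a tamoxifen-inducible Cre driven by *Osx* (*Sp7*), a transcription factor gene of immature osteoblasts, and the *mTmG* reporter, which switches from membrane tdTomato to membrane GFP after recombination. The sort kept CD31−, CD45− and TER119− cells. There were 4 juvenile libraries (3 weeks of age) and 4 adult libraries (8 weeks of age), each pooled from 2 male mice that received tamoxifen at 100 mg/kg on 3 consecutive days and were analysed 2 days after the last dose. The 2 *c-Myc* libraries came from mice that had, in addition, *LSL-tTA* (a tetracycline-controlled activator that Cre switches on) and *Col1a1::TetO–c-Myc*, a *c-Myc* transgene placed at *Col1a1* that this activator drives once the drug is withdrawn. The 2 *c-Myc* + *R172H* libraries came from mice that also carried *Trp53-LSL-R172H*, a Cre-dependent mutant allele of *Trp53*, the gene for p53. Both kinds of *c-Myc* mice were given 1 mg tamoxifen on each of 2 days, starting at 3 weeks, and their cells were collected 7 days later. Their titles give 3 weeks, whereas the dissection protocol calls them 5 weeks old. The protocol also gives a trim of 5 mm from the growth plate for them and of 2 mm for the controls, and it names both sexes for them, whereas elsewhere the methods state that only males were sequenced, so their sex is unclear. Mice of this inducible kind, or pregnant females, had doxycycline or tetracycline in their drinking water earlier to keep the transgene off. No such treatment is described for the controls. Genotype, age at dissection, trim, tamoxifen schedule and this drug treatment differ together between *c-Myc* and juvenile libraries. Their effects, with any of sex, cannot be told apart. No label says whether the replicates of the *c-Myc* groups were separate mice, so p-values measure only the spread between libraries.

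As background, osteocalcin and matrix Gla protein carry glutamates that a vitamin K-dependent carboxylase converts so that they bind calcium. Osteocalcin is a late product of osteoblasts, and matrix Gla protein, made by chondrocytes and vascular smooth muscle cells, restrains calcification. Bone sialoprotein and osteopontin are acidic, phosphorylated glycoproteins of the SIBLING family with integrin-binding sites; the first promotes and the second restrains growth of mineral crystals. Osteonectin binds collagen and calcium and is abundant throughout the osteoblast lineage.

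Total counts ranged from 9066154 to 15684412 per library, and the collagen genes *Col1a1* and *Col1a2* together with *Gm26917* took 35.2% to 65.3% of them. Levels are given as normalized CPM, the count relative to the library size after scaling with the TMM method over all 12 libraries, and 3 counts corresponded to 0.140 to 0.411 CPM. *Myc* lay between 39.2 and 51.8 CPM in the 8 control libraries and between 638 and 766 CPM in the 4 *c-Myc*-carrying libraries. *Sp7* was counted in every library, at 122 to 242 CPM, while markers of cells that the sort removes were low, with sums of at most 15.2 CPM (haematopoietic), 10.0 CPM (endothelial) and 0.691 CPM (erythroid). Summed levels of 12 growth plate chondrocyte markers were not low, with 18127 to 35079 CPM in juvenile, 42677 to 134999 CPM in adult and 894 to 2146 CPM in *c-Myc*-carrying libraries. *Col11a2* alone made up most of the last, at 1343 to 1795 CPM in *c-Myc* and 722 to 900 CPM in *c-Myc* + *R172H* libraries. In bulk samples, fewer cells of a type and less RNA per cell cannot be told apart.

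In the mouse genome build GRCm38 (mm10), the osteocalcin genes lie within 15849 bases of the minus strand of chromosome 3 (88368616 to 88384464). *Bglap* spans 88383501 to 88384464, *Bglap2* spans 88377736 to 88378699 and *Bglap3* spans 88368616 to 88372743. *Ibsp* (chromosome 5, 104299171 to 104311469) and *Spp1* (chromosome 5, 104435118 to 104441050) lie on the plus strand, 123648 bases apart. *Mgp* lies on the minus strand of chromosome 6 (136872435 to 136875823) and *Sparc* on the minus strand of chromosome 11 (55394500 to 55423183). Of these genes, *Spp1* alone overlaps another annotated gene, *Gm42793*. The coding sequences of the osteocalcins are shown because they decide which reads could be placed. Each has 288 bases, from start to stop codon of the first annotated transcript (GENCODE, GRCm38), and capitals mark the 13 positions at which the 3 genes are not all alike:
Bglap: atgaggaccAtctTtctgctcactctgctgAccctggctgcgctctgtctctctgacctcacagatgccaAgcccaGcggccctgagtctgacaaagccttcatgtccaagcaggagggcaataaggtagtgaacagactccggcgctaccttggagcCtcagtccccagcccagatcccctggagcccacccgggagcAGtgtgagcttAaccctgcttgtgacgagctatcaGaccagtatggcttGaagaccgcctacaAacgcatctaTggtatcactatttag
Bglap2: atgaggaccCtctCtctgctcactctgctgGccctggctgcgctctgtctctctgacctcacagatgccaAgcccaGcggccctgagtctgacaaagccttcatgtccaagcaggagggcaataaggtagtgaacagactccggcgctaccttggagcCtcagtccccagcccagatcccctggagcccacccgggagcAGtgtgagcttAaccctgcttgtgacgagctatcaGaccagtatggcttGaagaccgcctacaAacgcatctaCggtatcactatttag
Bglap3: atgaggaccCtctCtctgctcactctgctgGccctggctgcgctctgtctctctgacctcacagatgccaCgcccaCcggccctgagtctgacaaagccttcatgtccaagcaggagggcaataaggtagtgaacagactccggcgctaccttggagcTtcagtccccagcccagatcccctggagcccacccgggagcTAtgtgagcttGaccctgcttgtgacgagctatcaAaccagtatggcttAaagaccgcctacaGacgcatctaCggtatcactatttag

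*Bglap* and *Bglap2* differed at 4 coding bases (98.6% identity), which are A10C, T14C, A31G and T273C, with *Bglap* first and positions counted from the A of the start codon. *Bglap3* differed from *Bglap* at 13 coding bases and from *Bglap2* at 9. Since only uniquely mapped reads were counted, windows of 86 bases, the read length, were compared with all annotated transcripts. Of the 355 windows of the *Bglap* transcript, 135 (38.0%) occurred in no other gene, and of the 386 windows of the *Bglap2* transcript, 132 (34.2%) did. By contrast, 94.6% of the windows of *Bglap3* and all windows of *Ibsp*, *Spp1*, *Mgp* and *Sparc* were their own. The counts of *Bglap* and *Bglap2* therefore rest on part of each transcript, and their split is uncertain.

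Per kilobase of exon, *Sparc* had the highest level in juvenile libraries (7830 ± 1031 CPM per kb, SD, n = 4), followed by *Spp1* (2206 ± 519), *Ibsp* (1291 ± 360), *Bglap* (615 ± 155), *Bglap2* (389 ± 106) and *Mgp* (138 ± 101). The ranges of mean ± SD of *Spp1* and *Ibsp* did not meet, whereas those of *Bglap* and *Bglap2* did. Such ranges leave out that both genes of a pair were measured in the same libraries, and the order was not tested. Per kilobase of windows that are a gene's own, *Bglap* (2816 ± 708) came level with *Spp1* (2744 ± 645), and *Bglap2* (1387 ± 378) with *Ibsp* (1346 ± 375). This measure takes windows of 1 transcript in place of all exon bases of the gene. Genes without shared windows therefore rose too, *Sparc* to 13391 ± 1762 and *Mgp* to 309 ± 224. *Bglap3* was at or near the detection limit. Its counts were 9, 5, 0 and 1 in juvenile libraries, 0, 0, 7 and 0 in adult libraries, 0 and 1 in *c-Myc* libraries and 2 and 7 in *c-Myc* + *R172H* libraries. It did not have enough counts to be tested, so that 6 of the 7 genes entered each test.

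**Figure D1:**
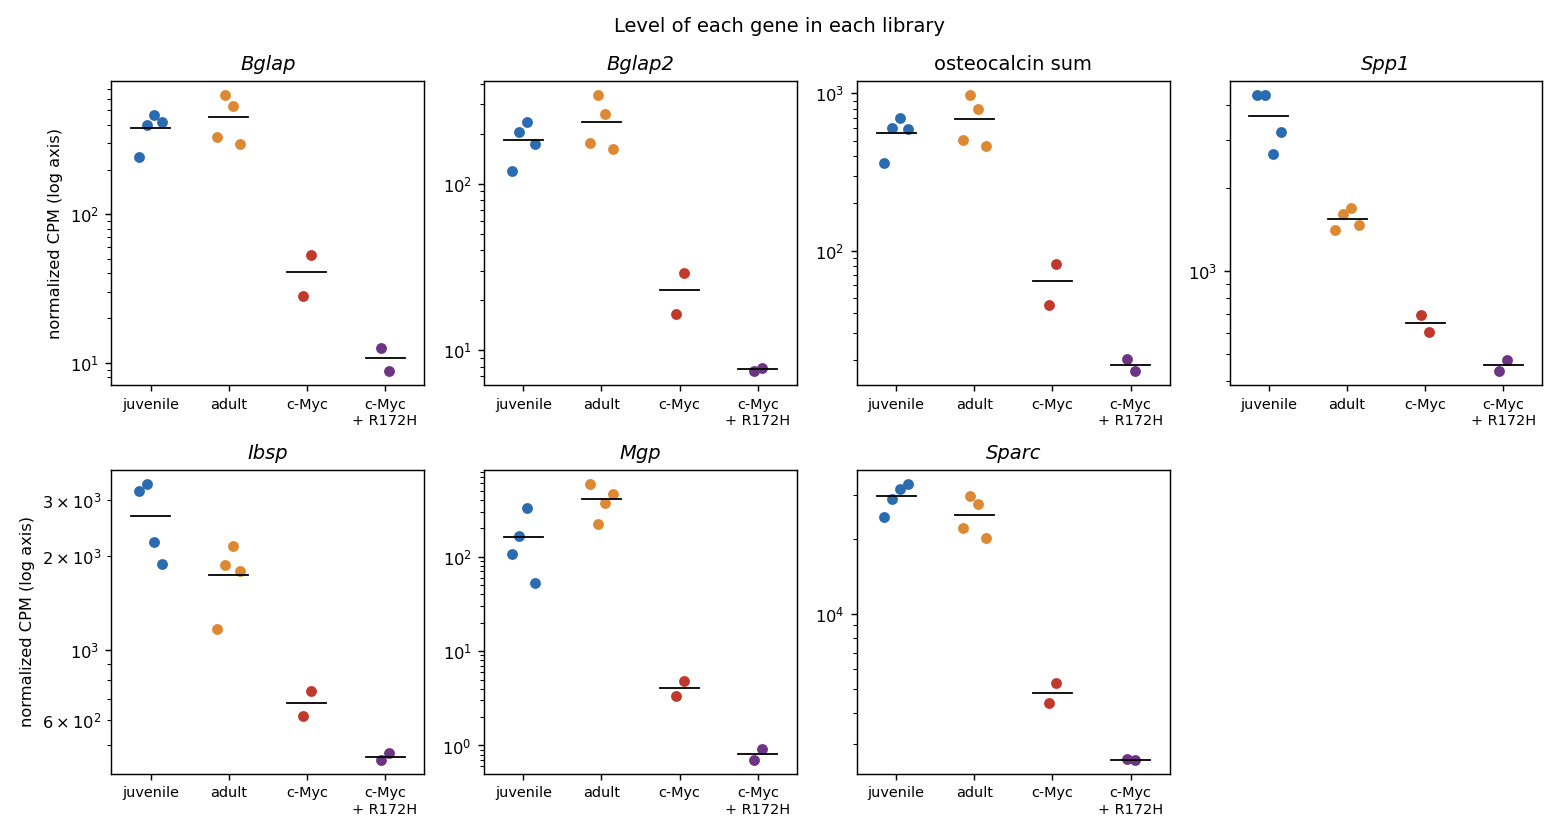
Normalized CPM of each tested gene and of the osteocalcin sum in each library (dots, log axis), by group, with the group mean as a line; juvenile and adult have 4 libraries and both c-Myc groups have 2. Each of the 6 tested genes is lowest in the 2 c-Myc + R172H libraries, and Bglap3, too low to test, is not drawn. Spp1 is the gene whose juvenile and adult libraries do not overlap.

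Juvenile and adult cells were compared to see which of these genes differ between growing and nearly grown bone. *Spp1* was higher in juvenile cells, and none of the other tested genes passed the test. Of all 11345 genes tested with edgeR's quasi-likelihood test, 1.89% were higher and 3.23% lower in juvenile libraries (adjusted p below 0.05). Of the 6 genes, 1 was higher and 0 were lower. At an unadjusted p below 0.05, 2 were higher and 0 lower, where 9.06% of all genes were higher and 10.6% lower. DESeq2 after adjustment also called 2 higher and 0 lower, where it called 2.45% of all genes higher and 4.72% lower. Their median log2 fold change (juvenile over adult) was -0.0024, and that of all genes was 0.00093.

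*Spp1* was at 4349, 4354, 2655 and 3184 CPM in juvenile libraries and at 1408, 1612, 1690 and 1466 CPM in adult libraries. The groups did not overlap, as for 6.16% of all genes in this direction and 6.79% in the other, and juvenile replicates 1 and 2 were the highest. The level was 2.34-fold higher in juvenile libraries (log2 fold change 1.23, SE 0.16, adjusted p = 0.000662). *Ibsp* was at 3211, 3390, 2201 and 1877 CPM in juvenile libraries and at 1167, 1860, 2144 and 1781 CPM in adult libraries. Its groups overlapped, juvenile replicates 1 and 2 were again above all others, and the log2 difference of 0.61 (SE 0.21) had an adjusted p of 0.0966. The same 2 juvenile libraries had more counts of unrecombined tdTomato (95 and 56) than replicates 3 and 4 (5 and 9), and the part of this in the result was not tested. With DESeq2, *Ibsp* passed (adjusted p = 0.0262).

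*Sparc* was at 24461, 29009, 31836 and 33338 CPM in juvenile libraries and at 22109, 29781, 27654 and 20215 CPM in adult libraries. These ranges overlapped widely (log2 fold change 0.24, SE 0.18, adjusted p = 0.522). *Bglap* was at 243, 398, 464 and 416 CPM in juvenile libraries and at 332, 637, 534 and 296 CPM in adult libraries. *Bglap2* put the adult libraries in the same order, with 119, 204, 236 and 174 CPM in juvenile and 175, 342, 262 and 163 CPM in adult libraries. For the osteocalcin sum the log2 fold change was -0.29 (SE 0.26, adjusted p = 0.621), a difference smaller than the spread between libraries.

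*Mgp* was at 109, 167, 329 and 52.7 CPM in juvenile libraries and at 599, 223, 370 and 466 CPM in adult libraries. Juvenile replicate 3 lay among the adult libraries, and the log2 fold change of -1.34 (SE 0.59) had an adjusted p of 0.279. The chondrocyte marker sums stood beside it. They were 27286, 33692, 35079 and 18127 CPM in juvenile and 134999, 42677, 64001 and 82633 CPM in adult libraries. In both groups the library with the highest *Mgp* level had the highest marker sum and the library with the lowest had the lowest. Sums of 5 smooth muscle and pericyte markers put the libraries of each group in the same order as *Mgp*. They were 307, 311, 348 and 252 CPM in juvenile and 764, 349, 397 and 498 CPM in adult libraries. *Cspg4*, at 295 ± 43.1 CPM in juvenile and 473 ± 184 CPM in adult libraries (SD, n = 4), made up most of them. Of the 12 chondrocyte markers, 1 (*Col2a1*, the main cartilage collagen) passed the test, lower in juvenile libraries, and none was at 0 in all libraries of either group. Of 4 tested smooth muscle and pericyte markers, 2 were lower and 0 higher in juvenile libraries. The part of chondrocyte or smooth muscle RNA in the *Mgp* levels was not tested.

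**Figure D2:**
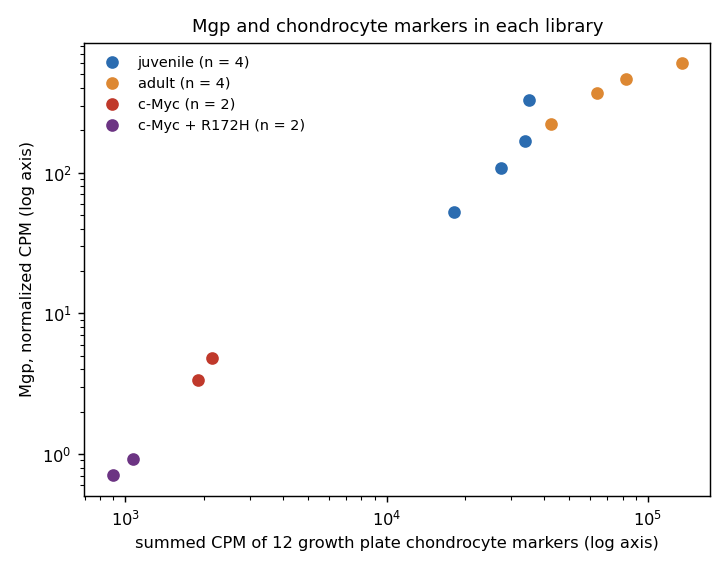
Mgp level (normalized CPM, log axis) against the summed level of 12 growth plate chondrocyte markers (CPM, log axis), 1 dot per library, coloured by group. Adult libraries lie at 42677 CPM of markers or more, juvenile libraries between 18127 and 35079, and the c-Myc-carrying libraries at 2146 or less, with Mgp at 4.83 CPM or less. In the c-Myc-carrying libraries most of the marker sum is Col11a2.

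*c-Myc* libraries were compared with juvenile libraries, from which they differ in age at dissection, trim, tamoxifen schedule and drug treatment besides genotype. All 6 tested genes were lower in *c-Myc* libraries. Here a gene had to change by at least 1 on the log2 scale besides having an adjusted p below 0.05, and 18.4% of 12588 genes were higher and 16% lower. Against this background, 6 of 6 genes were lower. Their median log2 fold change was -2.87, whereas that of all genes was 0.04. The groups did not overlap for any of the 6, while 27.6% of all genes were lower and 37.2% higher in this way.

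*Mgp* fell most, from 52.7 to 329 CPM in juvenile libraries to 3.36 and 4.83 CPM in *c-Myc* libraries (log2 fold change -5.39, SE 0.96, adjusted p = 0.00437). The 12 chondrocyte markers moved with it, and 12 of 12 were lower (median log2 fold change -5.51), none of them at 0. Counts of tdTomato also differed, at 0.685 to 8.59 CPM in control libraries and 29.6 to 35.3 CPM in *c-Myc*-carrying libraries. The strain list gives the *c-Myc* transgene with an mCherry reporter, and whether mCherry reads entered the tdTomato counts was not tested. The part of chondrocyte RNA or of unrecombined cells in the results was not tested. The osteocalcin genes followed. *Bglap* was at 28.2 and 53.2 CPM and *Bglap2* at 16.5 and 29.3 CPM in *c-Myc* libraries, and *c-Myc* replicate 1 was the lower of the pair for both. The osteocalcin sum was 9.24-fold lower (log2 fold change -3.21, SE 0.33, adjusted p = 4.23e-05), with *Bglap* at -3.29 (SE 0.35) and *Bglap2* at -3.06 (SE 0.29).

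The acidic phosphoproteins and osteonectin lost less. *Sparc* was at 4383 and 5283 CPM in *c-Myc* libraries, 6.41-fold below juvenile libraries (log2 fold change -2.68, SE 0.14, adjusted p = 2.86e-08). *Spp1* was at 694 and 605 CPM (log2 fold change -2.55, SE 0.20, adjusted p = 4.63e-07). *Ibsp* changed least, to 616 and 739 CPM (log2 fold change -2.04, SE 0.23, adjusted p = 1.47e-05). The differences between these fold changes were not tested. Scaling by library totals raised the median of all genes to 0.87 on the log2 scale, and *Ibsp* was then at -1.24 and *Mgp* at -4.55, all 6 genes still being called lower. Under that scaling 5234 genes were higher and 700 lower, against 2320 and 2010 with TMM.

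**Figure D3:**
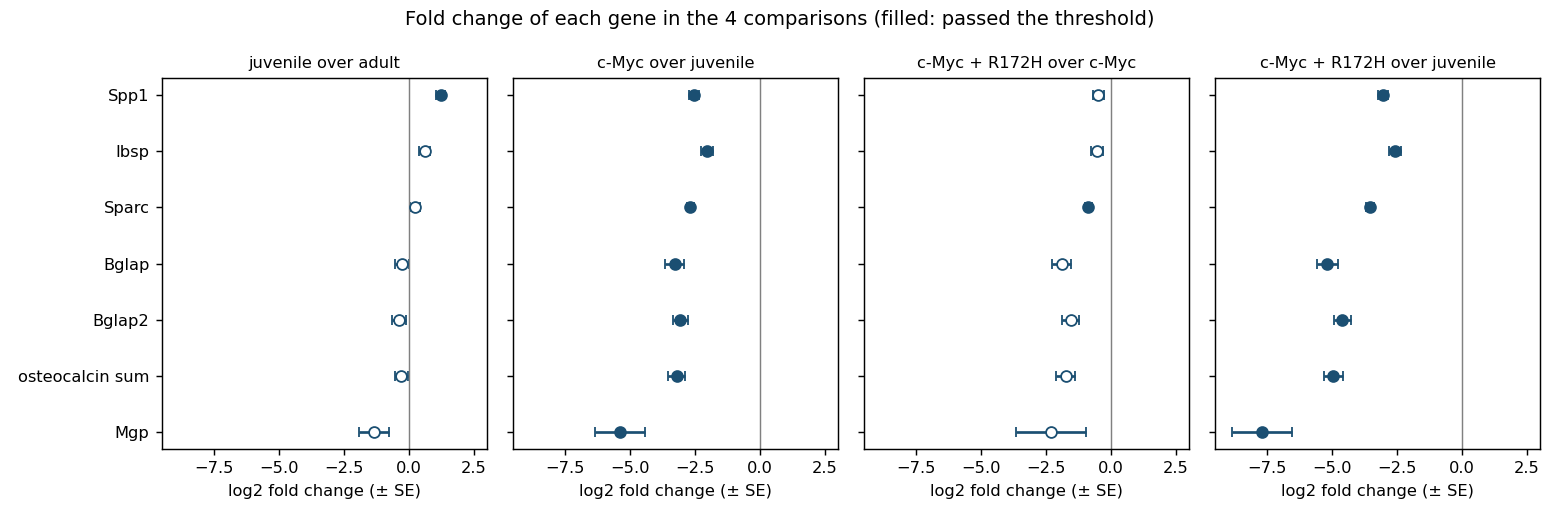
Log2 fold change (dots, with SE as bars) of each gene and of the osteocalcin sum in the 4 comparisons, filled where the threshold was passed. In juvenile over adult only Spp1 passed, in both comparisons of c-Myc-carrying libraries with juvenile libraries all genes passed, and in c-Myc + R172H over c-Myc only Sparc passed.

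*c-Myc* + *R172H* libraries were compared with *c-Myc* libraries to see what the mutant *Trp53* allele added. Every tested gene had a negative fold change, and *Sparc* alone passed the test. Of the 12588 genes, 0.00794% were higher and 0.461% were lower (adjusted p below 0.05, edgeR). Of the 6 genes, 0 were higher and 1 was lower. At an unadjusted p below 0.05, 0 were higher and 5 lower, where 0.62% of all genes were higher and 4.06% lower. Their median log2 fold change was -1.21 (all genes -0.0028). The 2 libraries of each group did not overlap for any of the 6, while 26.3% of all genes were lower and 18.6% higher in this way. The *c-Myc* libraries also serve as the group compared with juvenile libraries, so these comparisons are not independent.

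*Sparc* was at 2614 and 2596 CPM in *c-Myc* + *R172H* libraries (log2 fold change -0.87, SE 0.14, adjusted p = 0.0204). Its call did not hold under 6 of 18 alternatives, among them leaving out juvenile replicate 2 (adjusted p = 0.0872), *c-Myc* replicate 2 (0.228), *c-Myc* + *R172H* replicate 1 (0.217) or *c-Myc* + *R172H* replicate 2 (0.188). *Bglap* was at 12.7 and 8.80 CPM (log2 fold change -1.90, SE 0.38, adjusted p = 0.103). *Bglap2* was at 7.50 and 7.89 CPM (-1.55, SE 0.32, adjusted p = 0.0711), and the osteocalcin sum was at -1.75 (SE 0.35, adjusted p = 0.0989). *Mgp* was down to 15 and 18 counts, or 0.703 and 0.916 CPM, and its log2 fold change of -2.30 had an SE of 1.34. *Spp1* (435 and 478 CPM) and *Ibsp* (447 and 469 CPM) were nearest to the *c-Myc* libraries, with log2 fold changes of -0.49 (adjusted p = 0.865) and -0.54 (adjusted p = 0.974). DESeq2 called 0 of the 6 genes higher and 3 lower, and 0.128% and 3.21% of all genes with an adjusted p.

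Against juvenile libraries, *c-Myc* + *R172H* libraries were lower for 6 of 6 genes, where 19.6% of all genes were higher and 17.9% lower. Fold changes on the log2 scale were -7.69 for *Mgp* (SE 1.16), -5.19 for *Bglap*, -4.61 for *Bglap2*, -3.55 for *Sparc*, -3.04 for *Spp1* and -2.59 for *Ibsp*. The osteocalcin sum was 31.1-fold lower. The median was -4.08 (all genes 0.08).

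Shares within a library do not depend on how libraries are scaled. *Bglap* held 66.0% to 70.5% of the osteocalcin counts in juvenile libraries, 64.5% to 67.0% in adult libraries and 63.0% and 64.4% in *c-Myc* libraries. In *c-Myc* + *R172H* libraries it held 62.5% (95% exact binomial interval 57.7% to 67.1%) and 51.6% (46.1% to 57.1%), the latter on 335 counts. These intervals cover counting error only. The age difference of 1.97 percentage points had a p of 0.114 (exact two-sided permutation test, 4 against 4 libraries, smallest possible p 0.0286). The 7 genes together held 2.81 ± 0.14% of all counts in juvenile and 2.66 ± 0.25% in adult libraries (SD, n = 4, exact permutation p = 0.343), but 0.784% and 0.847% in *c-Myc* and 0.546% in both *c-Myc* + *R172H* libraries. With *Col1a1*, *Col1a2* and *Gm26917* left out of the total, the share was 7.27 ± 0.52% in juvenile and 5.33 ± 1.19% in adult libraries (SD, n = 4, exact permutation p = 0.0571), a difference of 1.94 in place of 0.15 percentage points.

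The log2 ratio of the osteocalcin sum to *Sparc* was -6.08, -5.59, -5.51 and -5.82 in juvenile libraries and -5.44, -4.93, -5.12 and -5.46 in adult libraries. Every adult library lay above every juvenile library, by a mean of 0.51 on the log2 scale (exact two-sided permutation p = 0.0286, 0.0857 after adjustment over the 3 values tested in this way, which does not pass 0.05). The ratio was -6.62 and -6.00 in *c-Myc* libraries and -7.01 and -7.25 in *c-Myc* + *R172H* libraries.

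**Figure D4:**
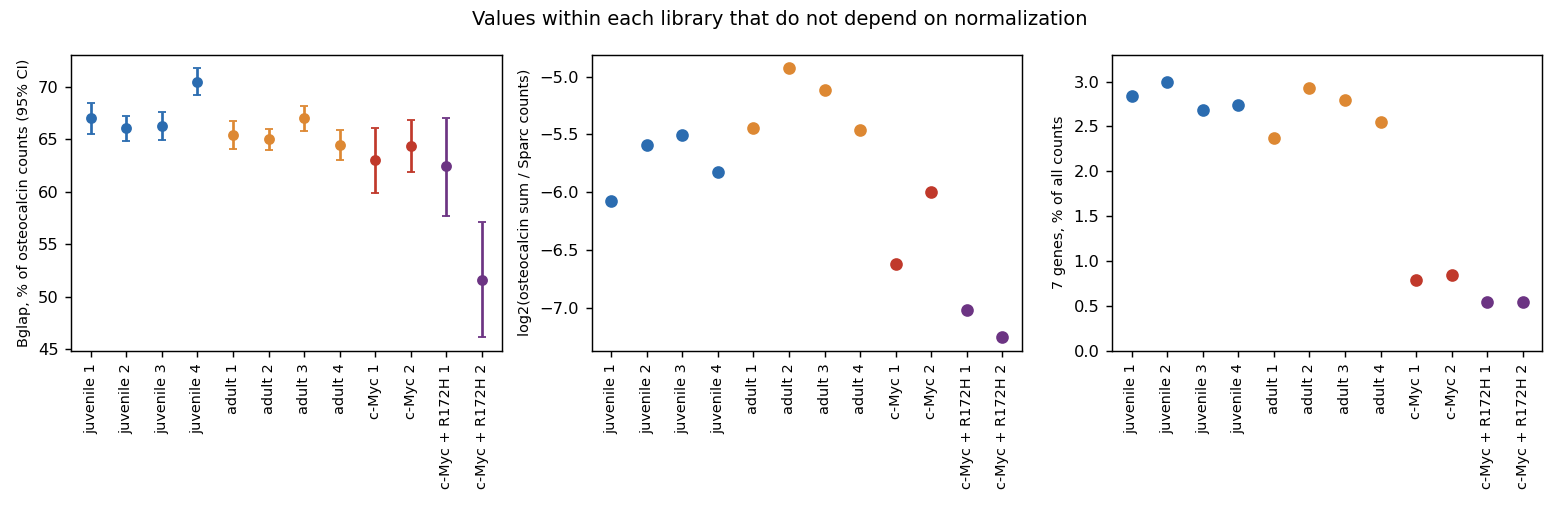
Values within each of the 12 libraries, coloured by group. Left, Bglap as a percentage of osteocalcin counts with its exact 95% binomial interval; middle, log2 ratio of osteocalcin to Sparc counts; right, percentage of all counts held by the 7 genes, which lies between 2.37 and 3.00 in control libraries and between 0.546 and 0.847 in c-Myc-carrying libraries.

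Genes around these proteins were counted by list. Of 66 tested genes in 7 lists, 6 were higher and 2 lower in juvenile than in adult libraries. Over all genes, 1.89% were higher and 3.23% lower. *Dmp1*, a SIBLING protein of osteocytes, was higher like *Spp1* (314 ± 84.6 against 152 ± 34.6 CPM, SD, n = 4, log2 fold change 1.04, adjusted p = 0.0122). Among 25 transcription factors that bind the osteocalcin promoter or act upstream of it (median log2 fold change 0.25), 5 were higher, namely *Sp7*, *Vdr* (the vitamin D receptor), *Tcf7*, *Smad1* and *Jund*, at log2 fold changes of 0.43 to 0.96. *Ucma*, a Gla protein of cartilage, was lower (-3.36, adjusted p = 0.0155), as was *Fam20b* (-0.79, adjusted p = 0.00488), a secretory-pathway kinase.

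In *c-Myc* + *R172H* libraries, 5 of 67 tested genes were higher and 35 lower than in juvenile libraries, where 19.6% and 17.9% of all genes were. In *c-Myc* libraries, set against the same juvenile libraries, 5 were higher and 34 lower, where 18.4% and 16% of all genes were. Both tested SIBLING relatives were lower, *Dmp1* (-1.92, adjusted p = 5.21e-05) and *Mepe* (-1.42, adjusted p = 0.0403). Of 7 genes of the vitamin K cycle and other Gla proteins, 5 were lower (median log2 fold change -1.66), among them *Ggcx*, the carboxylase that modifies osteocalcin and matrix Gla protein (-1.66, adjusted p = 8.58e-05), and *Vkorc1*, which recycles vitamin K (-1.78, adjusted p = 3.87e-07). The others were *Gas6*, *Pros1* and *Ucma*. Of 8 secretory kinases and proteases, 5 were lower (median -1.19), including *Fam20c*, the kinase that phosphorylates SIBLING proteins (-1.11, adjusted p = 1.15e-05), *Phex* (-1.93), a peptidase of phosphate handling, and the proprotein convertases *Pcsk5* (-2.39), *Pcsk6* and *Furin*.

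Of 8 other mineralization genes, 6 were lower and 1 higher (median -1.15). *Alpl*, the phosphatase that frees phosphate for mineral, was at -1.25 (adjusted p = 1.03e-07), and *Slc20a1*, a phosphate transporter, was the higher one (1.53, adjusted p = 3.72e-06). *Ank*, *Enpp1*, *Phospho1*, *Sgms2* and *Smpd3* were lower too. Of 5 SPARC family relatives 4 were lower (median -1.70), and *Smoc2* was at -3.73 (adjusted p = 5.52e-08). *Fstl1* and *Spock2* were lower as well. *Spock1* had no counts in any *c-Myc*-carrying library. Its juvenile level was 2.28 ± 2.00 CPM (SD, n = 4), with a lowest value of 0. Against that juvenile mean it was at least 29.5-fold lower in *c-Myc* libraries, with 3 counts over the group as the floor. Putting it at this bound leaves the median as it is. Of 11 receptors (median -0.82), 4 were lower, the integrin subunits *Itgav* (-1.07), which takes part in binding osteopontin, *Itga5*, *Itga8* and *Itga9*, and 2 were higher, *Itga4* (4.72, adjusted p = 2.00e-07) and *Stab1* (2.17, adjusted p = 0.000318). Of 26 transcription factors (median -0.67), 8 were lower and 2 higher (*Fosl1* and *Msx2*). *Lef1* (-3.25), *Cebpd* (-2.68) and *Twist1* (-1.83) had the lowest values, and those also lower included *Dlx3*, *Vdr*, *Smad1* and *Runx1*. *Runx2* (-0.71, adjusted p = 6.49e-05) and *Sp7* (-0.81, adjusted p = 2.51e-05) passed the p threshold but not the fold threshold. Adding *R172H* called 0 of 67 in either direction with edgeR, where 0.00794% of all genes were higher and 0.461% lower. At an unadjusted p below 0.05, 1 was higher and 13 lower (0.62% and 4.06% of all genes). DESeq2 called 0 higher and 5 lower (0.128% and 3.21% of all genes with an adjusted p).

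**Figure D5:**
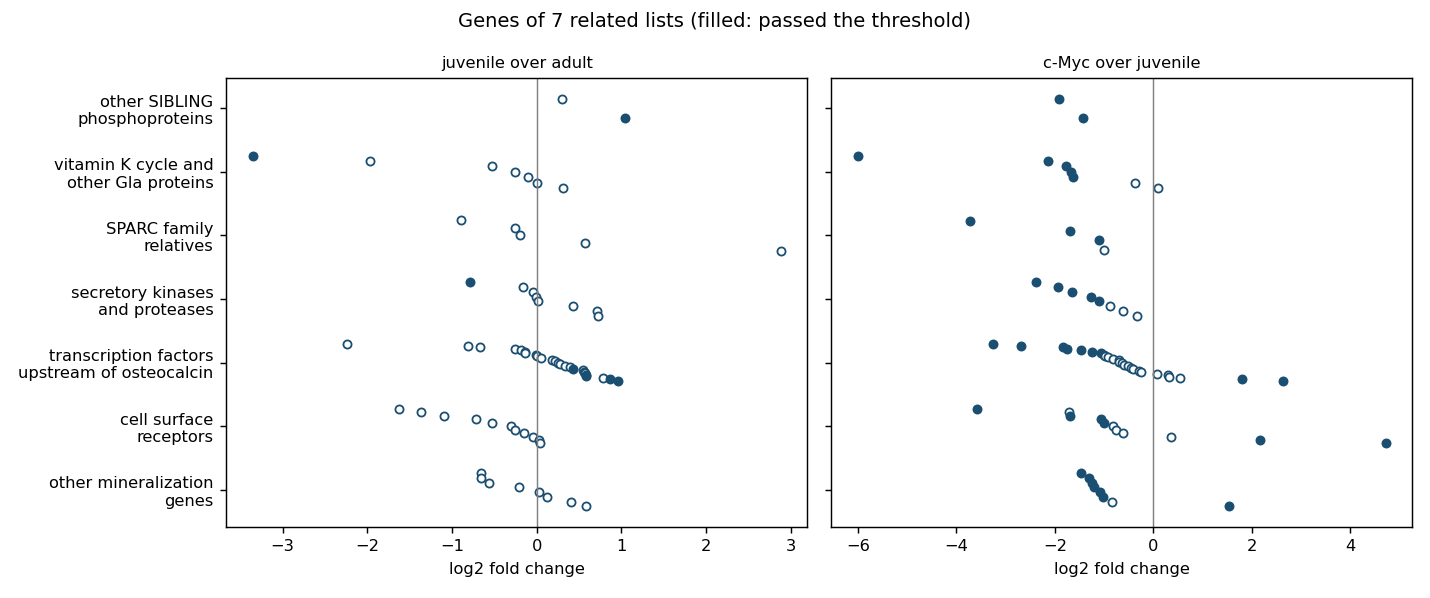
Log2 fold changes of the genes of 7 related lists, 1 dot per gene, in juvenile over adult (left) and c-Myc over juvenile (right), filled where the threshold was passed. On the right 34 genes were lower and 5 higher, and on the left 6 were higher and 2 lower. Spock1, without counts in c-Myc libraries, is counted among the 34 but not drawn on the right.

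RUNX2 is known to bind the osteocalcin promoter, so the 250 bases before each start were searched for the letters ACCACA, part of the RUNX site, on both strands (TGTGGT). This promoter table (RefSeq, GRCm38.p6) held 5 of the 7 genes, not *Bglap2* and *Mgp*. Its starts can differ from the gene coordinates given above. The *Ibsp* window (chr5:104299037-104299286) reaches into the gene as given there, and the *Sparc* window (chr11:55420081-55420330) lies inside it. The motif occurred before *Bglap* (132 bases before the start) and before 1 of 2 *Spp1* starts (128 bases), not before *Bglap3*, *Ibsp* or *Sparc*. Of 32851 such windows, 14.0% held it. The pair is printed because its members had unlike age patterns, of which *Spp1* was the one called higher in juvenile libraries, while both were lower with *c-Myc*; capitals mark the motif. *Bglap* is chr3:88384467-88384716, minus strand, and *Spp1* is chr5:104434861-104435110, plus strand:
Bglap: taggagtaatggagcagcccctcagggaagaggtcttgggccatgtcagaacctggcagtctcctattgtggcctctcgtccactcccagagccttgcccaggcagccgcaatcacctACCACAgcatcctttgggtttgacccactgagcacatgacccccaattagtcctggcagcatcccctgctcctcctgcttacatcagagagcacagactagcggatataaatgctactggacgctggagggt
Spp1: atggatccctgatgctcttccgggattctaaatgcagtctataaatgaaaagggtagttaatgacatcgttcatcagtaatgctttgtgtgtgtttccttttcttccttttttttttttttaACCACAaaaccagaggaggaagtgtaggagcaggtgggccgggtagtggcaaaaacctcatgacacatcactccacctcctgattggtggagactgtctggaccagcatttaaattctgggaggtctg

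The genes with the nearest pattern over the 12 libraries were found by the root mean square difference of centred log2 CPM, in which a smaller value means more alike. For the osteocalcin sum they were *Dcn* (0.27), *Lum* (0.31), *Smoc2* (0.34), *Prss35* (0.39) and *Gask1b* (0.43). *Dcn* and *Lum* encode small proteoglycans of collagen matrix. *Dcn* was at 466 ± 93.9 CPM in juvenile, 527 ± 181 CPM in adult, 65.6 ± 12.6 CPM in *c-Myc* and 21.0 ± 5.62 CPM in *c-Myc* + *R172H* libraries (SD, n = 4, 4, 2 and 2). For *Spp1* the nearest were *Ifitm5*, an osteoblast membrane protein (0.25), *Adgrd1* (0.27) and *Mme* (0.28). *Ibsp* itself stood at 0.33 from *Spp1*. For *Ibsp* they were *Kbtbd11* (0.20), *Pdgfa* (0.20) and *Vldlr* (0.21), and for *Sparc* they included *C1qtnf6* (0.16) and *Adamts2* (0.16). The nearest to *Mgp* were *Col2a1* (0.48), *Meltf* (0.51) and *Col9a3* (0.54), of which *Col2a1* and *Col9a3* encode cartilage collagens and *Col2a1* is one of the chondrocyte markers. *Mgp* was farthest from *Ibsp* (2.61) and *Spp1* (2.64) among the members.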

How the data were processed

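Sequencing reads of 86 bases from 12 libraries were trimmed with cutadapt 4.6 and aligned to mm10 with STAR 2.7.11a by the authors, who used HTSeq 2.0.5 to count the reads with a unique position in each gene. The deposited values are these raw counts, and the strand setting of the counting is not given in the sources used here. The reads carry no molecular identifiers.

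Groups were taken from the sample titles. Counts were tested with edgeR 4.0.16 in R 4.3.3 (TMM, filterByExpr with a minimum count of 10, robust quasi-likelihood F test, Benjamini-Hochberg over all genes tested). The age fit held 8 libraries. A second fit of 8 libraries held both *c-Myc* groups and the juvenile group, and its 3 comparisons share libraries. SE values are approximate, being the size of each log2 fold change over the root of its F statistic. CPM values were scaled over all 12 libraries, so that fitted folds can differ slightly from ratios of their means. For the osteocalcin sum, the 3 rows were replaced by their sum. Single values were tested by exact permutation with SciPy 1.17.1. Sequences and coordinates come from GENCODE vM21 and RefSeq on GRCm38, whereas the authors used other GENCODE releases. DESeq2 1.42.0, other scalings and filters, other sets of libraries, a replicate block and leaving out each library were the alternatives. The procedure was tested on simulated data.

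The genes named are the 7 members, the called genes of the related lists (the main ones with values), and the nearest genes by pattern. Members and lists were chosen with earlier results of these data known. *Runx2*, uncalled related genes and *Gm42793* were named after their values were seen. Some items that these rules name are not reported here.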

Additional observations from a re-analysis of the deposited data

How the results depend on the processing

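Depth limits *Bglap3*, which was near its floor of 3 counts, and *Mgp* in *c-Myc* + *R172H* libraries. Both comparisons with juvenile libraries called 6 of 6 genes lower under all alternatives run, and 101 of 102 single-gene values for age stayed on their side of the threshold; *Ibsp* crossed it with DESeq2, where 2 genes were called. The *R172H* comparison depended on the setting and the cause was not tested. Of its 6 genes, 0 were called with library totals or all 12 libraries in the fit, 3 with DESeq2, 4 with only the 2 groups in the fit, 5 with the replicate block and 6 with no filter on low counts, where the prior degrees of freedom were infinite. Over all genes these settings called 12, 22, 208, 629, 326 and 222 genes, against 59. Leaving out 1 library gave 0 to 3 of 6. The osteocalcin sum in that comparison was past the threshold with no filter (log2 fold change -1.75, adjusted p = 1.11e-32), with DESeq2 (-1.78, adjusted p = 0.000858) and without juvenile replicate 1 or *c-Myc* replicate 1, and it ranged from -2.16 to -1.26 when 1 library was left out. The age difference in the osteocalcin to *Sparc* ratio ranged from -0.59 to -0.40 when 1 library was left out, with p = 0.0571, the smallest that 3 against 4 libraries allow in the exact permutation test. Age calls over all genes ranged from 284 to 1094 against 581, and library totals turned the split of 214 higher and 367 lower into 53 and 793. Whether replicate numbers pair the samples could not be decided. Same-numbered deviations correlated at -0.05 to 0.14, but the adult titles do not carry the numbers of their library names. For *R172H*, with 2 libraries a group, both replicates necessarily give the same correlation (0.14). Apart from the *R172H* counts above, the replicate block changed no call of these genes.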
